A study of Mus musculus with 3 samples.

Results

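The data described here concern 8 long noncoding RNAs of neural tissue, namely Malat1, Neat1, Miat, Rmst, Six3os1, Tug1, Snhg11 and Snhg6, in single cells of the mouse retina. They were chosen by name from a list of noncoding RNAs, with earlier results of these data known, and 7 of the 8 had a row in the raw count matrices, which together held 19946 genes. Six3os1 had no row and was not analysed here. The study used MULTI-seq, in which lipid-anchored barcodes mark the cells of each sample before droplet capture, so that several samples share a 3′ RNA library. There were 3 libraries with 18 multiplexed samples and 14611 cells. The explant library (5607 cells) held retinas of wild-type CD1 mice, taken at E14 and kept for 6 days in culture with 0, 5, 50 or 500 nM of an agonist of the somatostatin receptor Sstr2, with 2 samples for each dose. The P0 library (5706 cells) and the P14 library (3298 cells) each held retinas of 5 littermates, of strain C57BL/6 / CD1 in the labels and bred from C57BL/6NCrl founders heterozygous for a germline deletion of Sstr2 that were crossed to CD1, with 1 Sstr2 +/+, 2 Sstr2 +/- and 2 Sstr2 -/- mice. Each age was a single library, so age and library cannot be told apart, and the single wild-type retina of each age has no spread of its own.

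Long noncoding RNAs are transcripts that are not known to encode a protein. Many of them are processed like messenger RNAs, and many stay in the nucleus. Malat1 collects in nuclear speckles, where splicing factors are stored, and Neat1 is the scaffold around which paraspeckles form. Miat, also called Gomafu, was first studied in the nervous system and the retina, Rmst is known as a partner of the neurogenic factor Sox2, Tug1 was named for its increase with taurine in cultured retinal cells and is needed for photoreceptors, and Snhg11 and Snhg6 are host genes whose introns carry small nucleolar RNAs.

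In the GENCODE M21 annotation of GRCm38, Malat1 lies on chromosome 19 at chr19:5795690-5802672 on the minus strand, and Neat1 lies close to it on the same strand at chr19:5824708-5845478. Miat is at chr5:112213228-112229395 and Rmst at chr10:92071037-92165170, both on the minus strand. Tug1, at chr11:3639785-3649673 on the minus strand, overlaps the start of Morc2a on the other strand. Snhg11 is at chr2:158375638-158386145 on the plus strand with 2 small nucleolar RNA genes inside it, and this release lists it as protein coding. Snhg6, at chr1:9941959-9944118 on the minus strand, holds Snord87 and overlaps Mcmdc2 on the other strand. Six3os1, at chr17:85600651-85618398 on the minus strand, overlaps the coding gene Six3 on the plus strand. Whether the authors' counting used strand is not given in the sources used here, so reads of Tug1 and Snhg6 that fall in these overlaps are uncertain.

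The 3′ method primes on runs of A, so the ends of these RNAs decide what can be counted. Sequences are given 5′ to 3′ on the strand of the gene from GRCm38. The exonic stretch of Malat1 at chr19:5795928-5796059 holds an encoded run of 12 A (capitals), which begins at base 6674 of a transcript of 6983 bases. An A run of that length or longer was present in 11.9% of the 4357 noncoding transcripts of at least 2000 bases. The last 60 bases of the short isoform of Neat1 (3004 bases, chr19:5842307-5842366) hold 1 AATAAA polyadenylation signal (capitals), whereas the last 60 bases of the long isoform (20771 bases, chr19:5824708-5824767) hold 0.
Malat1: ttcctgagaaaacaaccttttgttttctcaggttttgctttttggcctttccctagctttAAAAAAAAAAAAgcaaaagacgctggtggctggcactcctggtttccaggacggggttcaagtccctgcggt
Neat1 short isoform: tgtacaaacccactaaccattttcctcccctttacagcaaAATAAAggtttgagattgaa
Neat1 long isoform: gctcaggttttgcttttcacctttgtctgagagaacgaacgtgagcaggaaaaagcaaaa

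The remaining sequences show features for which the members are known. Miat is known for repeats of ACTAAC, the motif that splicing factor 1 binds, and its annotated transcript held 11 copies in 8758 bases, a number reached by 5 of the 4357 transcripts (0.115%), with a median of 0 copies. Copies were not scaled to transcript length, and Miat transcripts were not left out of this count. The printed stretch lies in the last exon of Miat at chr5:112216750-112216879 and shows 4 of its copies in capitals. The Snhg6 transcript of 473 bases starts, as annotated, with 7 pyrimidines (capitals, chr1:9944089-9944118), a feature known from the starts of ribosomal protein genes and many small nucleolar RNA hosts. The Rmst locus holds the miRNA genes Mir135a-2 and Mir1251, whose mature 5p forms (RefSeq, GRCm38.p6) lie at chr10:92072141-92072163 and chr10:92137190-92137210 on the minus strand. Their seeds, bases 2 to 8, are in capitals and differ from each other.
Miat: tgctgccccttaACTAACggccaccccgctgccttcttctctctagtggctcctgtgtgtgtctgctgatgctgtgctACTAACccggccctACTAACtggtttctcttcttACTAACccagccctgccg
Snhg6: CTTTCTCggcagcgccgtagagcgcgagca
mmu-miR-135a-5p: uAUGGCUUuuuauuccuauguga
mmu-miR-1251-5p: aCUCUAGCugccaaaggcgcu

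Levels are given as CPM, the UMIs (counted molecules) of a gene per 1000000 UMIs of all genes in the same sample and cell type. Totals per sample were 1281682 to 4237324 UMIs in the explants, 8822880 to 10793649 at P0 and 1266730 to 5886669 at P14. The cell types are those the authors deposited. Their marker genes were present, but the explant RGCs (5 to 61 cells per sample) had 11.5 to 20.53% mitochondrial UMIs against 5.11 to 6.85% in the other explant types. The P14 amacrine group (4 to 23 cells per retina) also carried horizontal cell markers at a summed 0 to 2315 CPM and RGC markers at 78.6 to 1272 CPM. P14 bipolar cells carried both too, at 802 to 1028 CPM and 1115 to 1449 CPM. The RGC list shares Isl1 with the bipolar list, and the horizontal markers Onecut1 and Lhx1 had no UMI in bipolar cells. Libraries shared 9, 4 and 7 cell barcodes in pairs. Sstr2 in P0 neurogenic progenitors was at 112 CPM in the wild-type retina, 189 and 248 CPM in the heterozygous retinas and 294 and 375 CPM in those labelled knockout. The paper also reports more Sstr2 mRNA in these cells of P0 mutants, and proposes that Sstr2 signaling may lower Sstr2 transcription. The counts here likewise rose, and did not fall, with the labelled loss of Sstr2. The extent of the deletion is not given in the sources used here and 3′ tags could lie outside it, so this is no check of the genotype, and the groups are called by their labels throughout. At P14 Sstr2 had 0 to 13 UMIs per retina.

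Around birth Snhg11 was highest in retinal ganglion cells (RGCs), and most of its UMIs were found there. In P0 RGCs it stood at 948 CPM in the wild-type retina, 1340 and 1313 CPM in the heterozygous retinas and 1355 and 1293 CPM in those labelled knockout, which is 34.1 times the mean in amacrine cells, the next type. All 5 retinas showed this order and the ranges of the 2 types did not overlap. The RGCs were 85 of 5706 cells (1.49%) and held 4.53% of all UMIs and 86.9% of the Snhg11 UMIs. A Snhg11 UMI was found in 82.4% of RGCs and in 0.322 to 2.67% of the cells of the other P0 types after each cell was thinned to 1500 UMIs. Without thinning the shares were 98.8% and 1.64 to 12.1%, at median depths of 24853 UMIs in RGCs and 4534.5 to 8759 UMIs in the others. The shares of progenitors and photoreceptors were low, 0.322 to 0.448% after thinning. Free RNA was not measured, and its part in these shares was not tested.

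In the explants the cells named RGCs again had the highest Snhg11 level, though the paper describes its explants as lacking viable RGCs. RGC markers summed to a mean of 3685 CPM in this group against 10708 CPM in P0 RGCs. Amacrine markers summed to 1146 against 533 CPM. Snhg11 in explant RGCs ranged from 162 to 1338 CPM with a median of 833 CPM, while its highest value in a sample of any other explant type was 19.03 CPM. RGCs held 74.2% of its explant UMIs in 3.57% of the cells, with 2.97% of all UMIs.

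At P14, where no RGC group was named, the amacrine group had the highest Snhg11 level. It measured 3259 CPM in the wild-type retina, 3442 and 9590 CPM in the heterozygous retinas and 8598 and 2431 CPM in those labelled knockout, 93.9 times the mean of bipolar cells. These 68 cells (2.06%) held 89.2% of the Snhg11 UMIs and 4.58% of all UMIs of the library. Counts summed over the retinas gave 4015 CPM. The values of the retinas did not follow genotype. Mitochondrial UMIs in this group were 9.52, 8.17, 19.1, 19.8 and 8.73% in the same order, high in the retinas with the highest Snhg11. The part of RNA quality in these values was not tested. Bipolar cells came next with 61.8, 30.2, 86.2, 54.0 and 58.9 CPM in the same order of retinas, above the highest rod value of 22.6 CPM. The amacrine group carried RGC and horizontal markers, as did bipolar cells. The part of amacrine cells proper in its Snhg11 level was not tested.

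**Figure D1:**
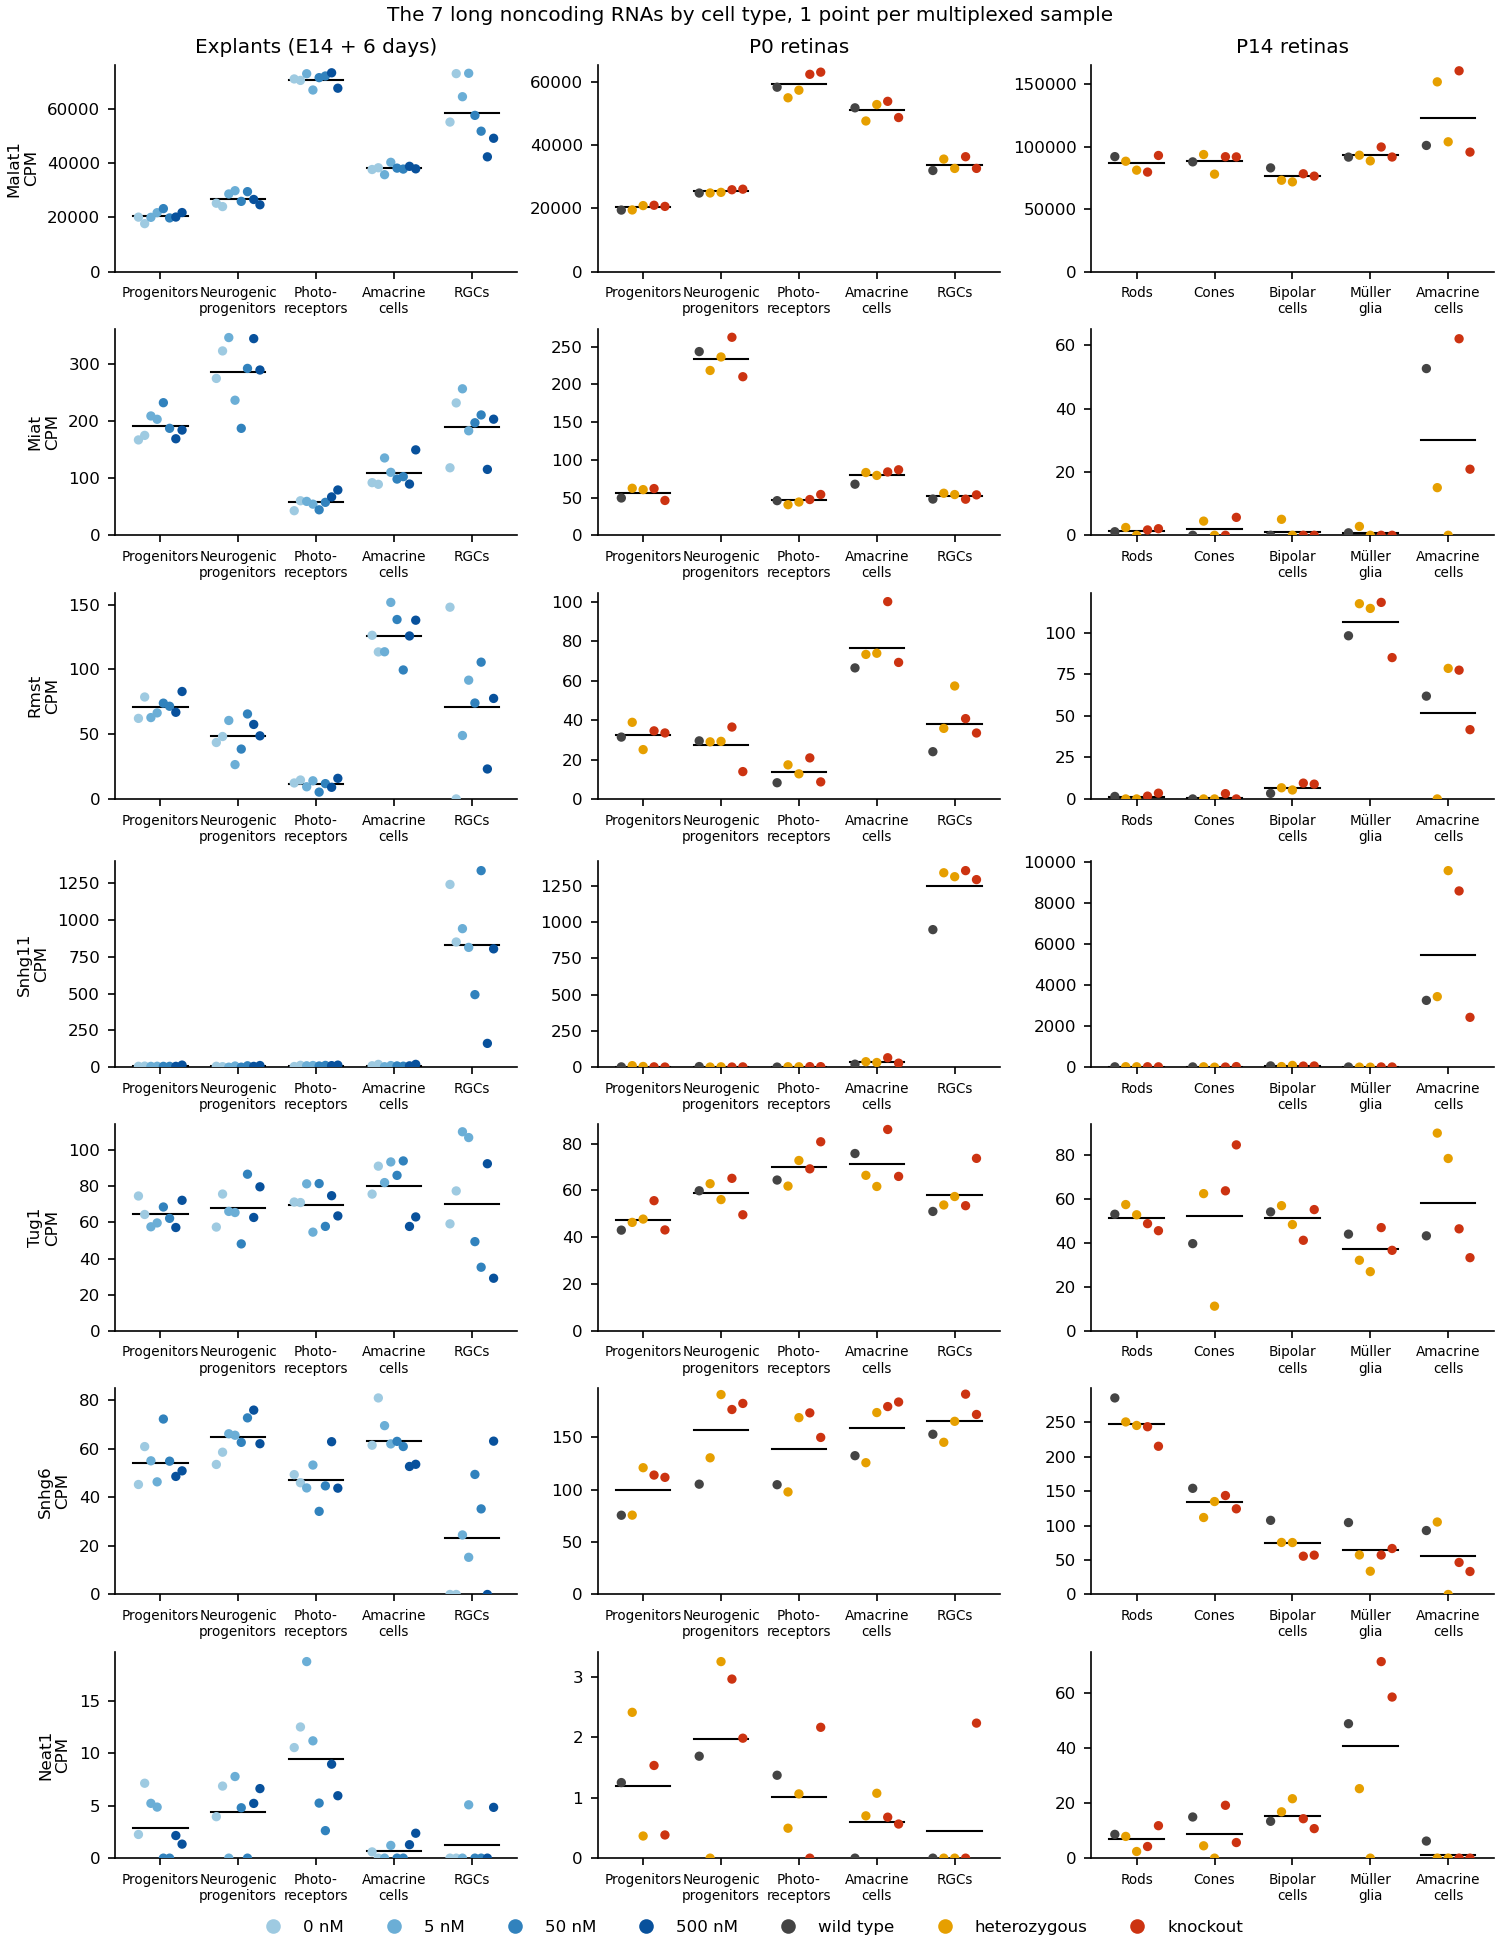
Level of each noncoding RNA in CPM (vertical axis, linear from 0 with its own range in each panel) by cell type (horizontal axis) and library, with 1 point per multiplexed sample coloured by dose or labelled genotype and a bar at the mean over samples. Snhg11 is set apart in RGCs and in the P14 amacrine group, Miat is highest in neurogenic progenitors in the explants and at P0, and Rmst is highest in amacrine cells in the explants and at P0 and in Müller glia at P14.

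Miat was highest in neurogenic progenitors. In these cells at P0, which express Atoh7 and Neurog2 and divide to give neurons, Miat was at 244 CPM in the wild-type retina, 219 and 237 CPM in the heterozygous retinas and 263 and 210 CPM in those labelled knockout. The mean of 234 ± 20.7 CPM (SD, n = 5) was 2.92 times that of amacrine cells, without overlap between the retinas' values. The other P0 types followed at 80.2 CPM in amacrine cells, 56.1 CPM in primary progenitors, 51.8 CPM in RGCs and 46.4 CPM in photoreceptors, and the ranges of the last 3 overlapped. Neurogenic progenitors were 11.7% of the P0 cells and held 10.8% of all UMIs and 32.8% of the Miat UMIs. At 1500 UMIs per cell, 32.6% of them had a Miat UMI against 4.82 to 11.5% in the other P0 types.

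In explants the highest type was again the neurogenic progenitors, with a lowest value of 188, a median of 291 and a highest value of 347 CPM. Primary progenitors had 167, 186 and 233 CPM and RGCs 116, 200.6 and 257 CPM. Neurogenic progenitors were above primary progenitors in 7 of 8 samples, and the ranges of the 3 types overlapped. Photoreceptors were lowest at 43.1 to 79.5 CPM, below every sample of the other types.

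By P14 little Miat was left. No retina exceeded 5.65 CPM in rods, cones, bipolar cells or Müller glia, and the amacrine group ranged from 0 to 62.0 CPM on 31 UMIs in all. That group, 2.06% of the cells with 4.58% of all UMIs, held 59.6% of the 52 Miat UMIs of the library.

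Rmst was highest in amacrine cells in the explants and at P0, and in Müller glia at P14. In the explants its amacrine level ran from 99.6 to 152 CPM with a median of 126 CPM, and photoreceptors ran from 5.26 to 15.9 CPM. P0 amacrine cells had 66.6, 73.4, 74.0, 100.2 and 69.4 CPM in the wild-type, the 2 heterozygous and the 2 retinas labelled knockout. These values lay above every other P0 type, the highest of which was 57.4 CPM in RGCs.

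P14 Müller glia, the radial support cells of the retina, had Rmst at 98.2, 118, 115, 118 and 85.1 CPM in the same order of retinas. They were 8.07% of the cells and held 83.6% of the Rmst UMIs, and their mean was 2.06 times that of the amacrine group, which ranged from 0 to 78.6 CPM. Rods and cones reached at most 3.46 CPM. A Rmst UMI was found in 58.6% of Müller glia and 26.5% of the amacrine group, at median depths of 15108 and 4512.5 UMIs. With cells thinned to 1500 UMIs these shares were 14.1% (37 cells) and 15.2% (10 cells), so by share of cells the order of these 2 types is not settled.

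Six3, the homeobox gene of eye and forebrain that lies across from the unmeasured Six3os1, is given in its place as a coding gene and not as a stand-in. It averaged 805 CPM in explant amacrine cells, 759 CPM in P0 RGCs, 491 CPM in P14 Müller glia and 18.3 CPM in rods. Over the 15 type and library means, log2(CPM + 1) of Six3 and Rmst had a Pearson correlation of 0.84, a description only, since types of a library share depth and preparation.

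Malat1 was lowest in progenitors and higher in the neurons made from them. At P0 it took 2.03 ± 0.08% (SD, n = 5) of all UMIs in primary progenitors, 2.54 ± 0.06% in neurogenic progenitors, 3.39 ± 0.20% in RGCs, 5.10 ± 0.27% in amacrine cells and 5.93 ± 0.34% in photoreceptors. The ranges of neighbouring types did not overlap, and all 5 retinas had primary progenitors lowest and photoreceptors highest. In explants primary progenitors were again lowest (1.77 to 2.32%), followed by neurogenic progenitors (2.40 to 2.98%) and amacrine cells (3.57 to 4.03%). Explant photoreceptors (6.69 to 7.33%) and RGCs (4.23 to 7.31%) were highest and overlapped, and the explant RGCs carry the high mitochondrial share given above.

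P14 cells had more Malat1, and their types were closer to each other. The share was 7.65 ± 0.44% in bipolar cells, 8.68 ± 0.61% in rods, 8.86 ± 0.63% in cones, 9.29 ± 0.41% in Müller glia and 12.3 ± 3.1% in the amacrine group. The amacrine group had the widest spread of these types, from 9.56 to 16.1%, on 4 to 23 cells per retina. The ranges of rods, cones and Müller glia overlapped.

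The share in single cells was less even than these means. In P0 photoreceptors the median share was 8.23% in the quartile of cells with the fewest UMIs and 3.99% in the quartile with the most, at median depths of 3087.5 and 13161 UMIs. P0 primary progenitors went the other way, with 1.55% and 2.29%. The depth of a cell thus moved with its Malat1 share in a direction that depended on the type, and the part of depth in the order of types was not tested.

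**Figure D2:**
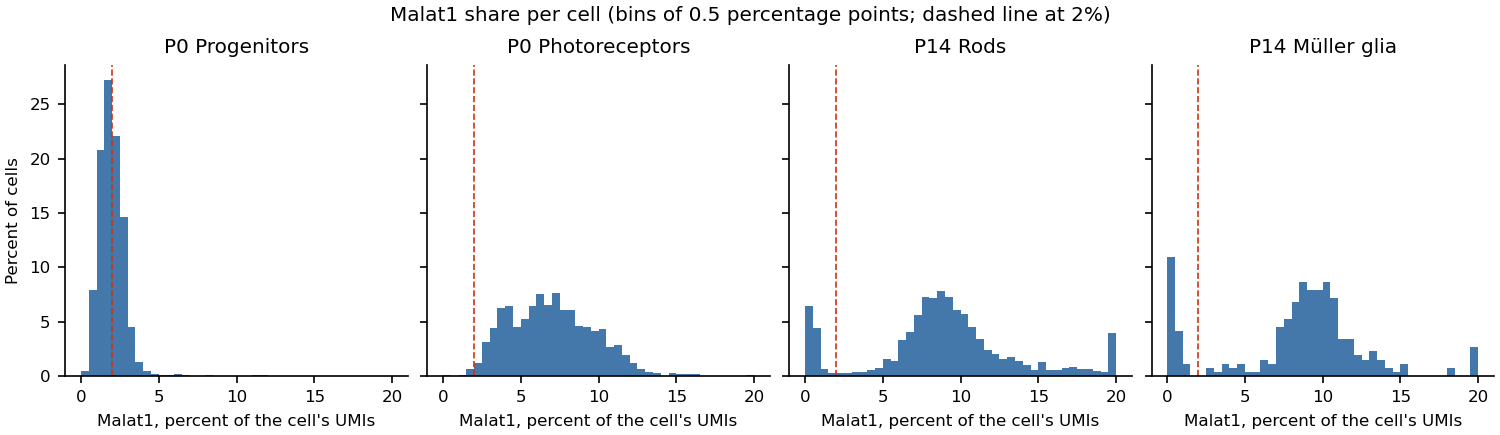
Malat1 as a percent of the UMIs of each cell (horizontal axis, the last bin pools 19.5% and above) against the percent of cells of the type (vertical axis), by library. Shares centre near 2% in progenitors and near 9% in P14 rods, and P14 rods and Müller glia have a second group of cells under 2%.

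A group of P14 rods and Müller glia had a Malat1 share well below that of the other cells of their type, though every one of them had a Malat1 UMI. Under 2% of the UMIs, a threshold chosen after the values were seen, lay 268 of 2271 rods (11.8%) and 43 of 266 Müller glia (16.2%), against 6 of 578 bipolar cells (1.04%), 1 of 115 cones and 5 of 68 cells of the amacrine group. Just above the threshold, between 2 and 5%, there were 58 rods (2.55%) and 11 Müller glia. By retina the rod share was 5.39% in the wild type, 10.5 and 24.4% in the heterozygotes and 14.5 and 14.1% in those labelled knockout. The Müller share was 6.58, 11.3, 35.7, 21.3 and 22.9% in the same order. The heterozygous retina with the highest share in both types was also the one with the fewest cells. A share under 2% was not low for every type, since 54.6% of explant and 56.3% of P0 primary progenitors lay under it too. Of photoreceptors, 0.842% in the explants and 0.788% at P0 lay under it.

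Taken over all retinas, these cells were shallow and rich in mitochondrial transcripts. Rods under 2% had a median of 2201 UMIs and 8.01% mitochondrial UMIs, against 3503 UMIs and 4.68% in the other rods. Müller glia under 2% had 2551 UMIs and 10.6%, against 15972 UMIs and 5.95%. In the second retina labelled knockout the mitochondrial shares of Müller glia were level, at 5.59 and 5.62%. The part of depth and RNA quality in the low Malat1 of these rods and Müller glia was not tested.

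Other long noncoding RNAs were compared in the same cells, as CPM of a total without Malat1. Of all 7313 genes compared in rods, 5493 were lower in the low cells, with a median log2 difference of -0.33. For the other long noncoding RNAs it was 11 of 15, a like share, with a median of -0.96. Among those named here after their values were seen, Mir124a-1hg, the host of miR-124, was at 133 CPM against 1525 CPM in the other rods, and Kcnq1ot1, a long RNA of an imprinted locus, was at 55.5 against 310 CPM, both lower in 5 of 5 retinas. Gm42418 (log2 0.61) and Epb41l4aos (0.50) were higher. Of the members, Tug1 was at 46.8 against 58.4 CPM (log2 -0.27) and Snhg11 at 13.2 against 21.7 CPM (-0.46), each lower in 4 of 5 retinas. Both lay near the middle of all genes, with 54.7 and 40.3% of genes having a lower log2 difference. Snhg6 was at 395 against 267 CPM, higher in 5 of 5 retinas, and 97.4% of genes had a lower log2 difference.

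In Müller glia 8 of 14 other long noncoding RNAs were lower in the low cells, a smaller share than the 3219 of all 4920 genes. The median log2 differences were -0.58 and -0.31. Of the members, Neat1 had 0 of its 172 UMIs in the low Müller glia, where 3 UMIs would have been 24.8 CPM. The other Müller glia had 55.7 CPM. Rmst was at 33.1 CPM on 4 UMIs against 119 CPM, lower in 5 of 5 retinas. Tug1 was at 8.27 CPM on 1 UMI against 46.0 CPM, lower in 4 of 5 retinas. Snhg6 was nearly level, at 82.7 CPM on 10 UMIs against 82.9 CPM. The genes with a lower log2 difference were 0.915% for Neat1, 8.29% for Rmst, 7.93% for Tug1 and 65.3% for Snhg6.

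Lists of related genes differed among themselves in rods. Of 20 genes for proteins of speckles and paraspeckles, 17 were lower in the low rods, with a median log2 difference of -0.69. Of 11 host genes of small nucleolar RNAs 3 were lower (median 0.39), and of 13 mitochondrial transcripts 0 were lower (median 0.56). Of 11 immediate early genes, which respond within minutes to stimulation and handling, 10 were lower (median -1.04). Leaving these cells out raised the Malat1 share of P14 rods to 9.56, 9.53, 9.60, 8.88 and 10.4% in the 5 retinas, and the cell type with the highest level stayed the same for each of the 7 members at P14.

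**Figure D3:**
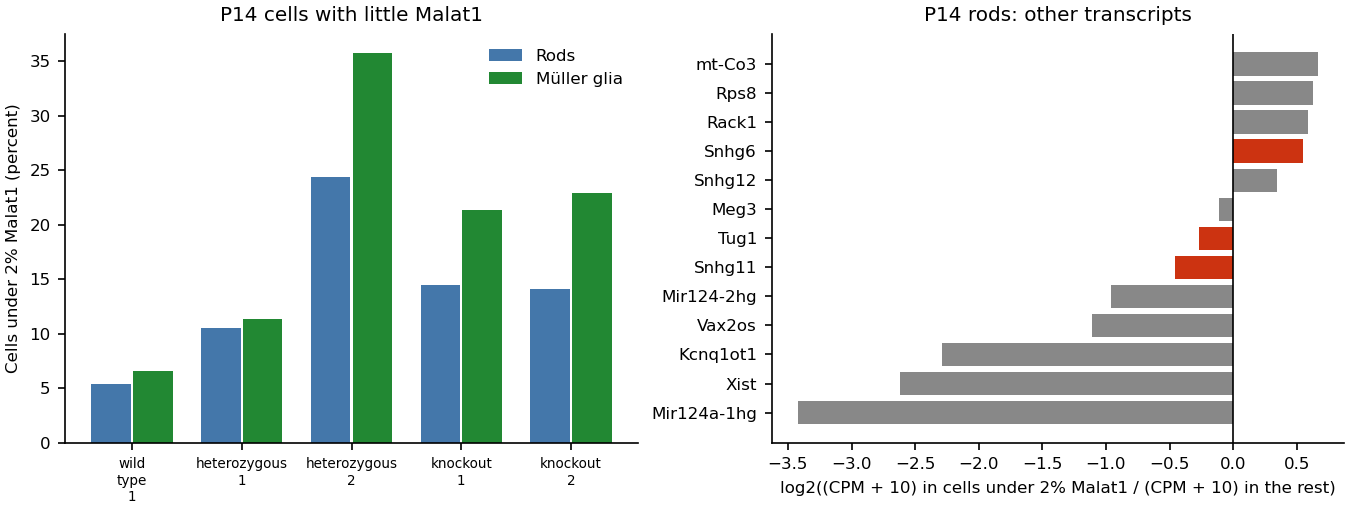
Left, percent of rods and of Müller glia with under 2% of their UMIs from Malat1 (vertical axis) in each P14 retina, highest in the second heterozygous retina with 24.4% of rods and 35.7% of Müller glia. Right, log2 ratio of the level (CPM + 10, of a total without Malat1) in rods under 2% Malat1 to that in the other rods (horizontal axis) for transcripts chosen after their values were seen, members in red, with Mir124a-1hg farthest below 0 and Snhg6 above 0.

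Neat1 was sparse in the explants and at P0, with 87 UMIs in all explant cells and 57 in all P0 cells. Explant photoreceptors held 45 of the former and had 9.49 ± 5.03 CPM (SD, n = 8), from 2.63 to 18.8 CPM, while no P0 type exceeded 3.25 CPM in any retina. P14 rods and cones, at 6.97 ± 3.71 and 8.84 ± 7.92 CPM (SD, n = 5), had means below that of explant photoreceptors, with overlapping ranges. At P14 Müller glia had 48.7 CPM in the wild type, 25.2 and 0 CPM in the heterozygotes and 71.3 and 58.4 CPM in those labelled knockout, and held 58.1% of the 296 Neat1 UMIs of the library. Bipolar cells followed at 10.7 to 21.5 CPM, and the ranges of these 2 types overlapped through the retina at 0.

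Tug1 was the most even member within the explants and at P0. Its mean over samples went from 64.6 CPM in explant primary progenitors to 80.4 CPM in explant amacrine cells, and from 47.2 CPM to 71.2 CPM in the same types at P0. At P14 means lay between 37.4 CPM in Müller glia and 58.4 CPM in the amacrine group, with rods at 51.7 ± 4.55 CPM (SD, n = 5). Neighbours in these orders overlapped, and the highest type changed between measures of level, so no order is read from them.

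Snhg6 was highest in rods at P14. Rods had 285 CPM in the wild type, 251 and 245 CPM in the heterozygotes and 244 and 215 CPM in those labelled knockout, and every value lay above the highest cone value of 154 CPM. Rods held 73.8% of its UMIs and 48.5% of all UMIs, and were 68.9% of the cells. Counted without thinning, more cones than rods had a Snhg6 UMI, 67.0 against 52.0%, at median depths of 10245 and 3374 UMIs, and at 1500 UMIs the shares were 12.2 and 29.9%. At P0 its means ran from 99.7 CPM in primary progenitors to 165 CPM in RGCs with overlap between neighbours.

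The genes whose pattern was most like that of each member were ranked by the Pearson correlation of log2(CPM + 1) over the 15 type and library means, among 6865 genes that reached 50 CPM. The points share libraries and depth, and the ranking is a description. For Malat1 they were Pura (0.94), Mia3 (0.92) and Rnf170 (0.91), and for Snhg11 the neuronal genes Caln1 (0.98), Chst1 (0.97) and Syn2 (0.96), the last a synaptic vesicle protein. Miat was nearest to C530008M17Rik (0.94), Strap (0.93) and B3gnt5 (0.93), and Rmst to Idnk (0.97), Cacng4 (0.97) and Efna5 (0.95), an ephrin. For Tug1 they were Kctd15 (0.92), Amn1 (0.90) and Arfrp1 (0.89), and for Snhg6 Eif2b4 (0.88), Snrnp27 (0.86) and Ubb (0.86). Neat1 did not reach 50 CPM in any mean and was not ranked.

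The explant series asked whether the Sstr2 agonist changed expression within a cell type. The UMIs of each gene were added up over the cells of a type in each sample, and these sums were compared by quasi-likelihood test in edgeR, with p-values adjusted by Benjamini-Hochberg over all genes of the type. Between 500 and 0 nM, 0 of 23 tests of members passed an adjusted p of 0.05, 4 had an unadjusted p under 0.05, and DESeq2 also called 0, where 0.205% of all tests passed. The 500 nM samples lay wholly above the 0 nM samples in 4 tests and wholly below in 4, against 18.8 and 16.9% of all tests. The sexes were not balanced between doses. Over all cells Xist measured 1301 and 1198 CPM in the untreated samples against 2684 and 2639 CPM at 500 nM, and in cells with a Xist UMI the count of members called was again 0.

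Snhg11 in explant RGCs had the lowest adjusted p of the members, among 1056 genes tested there. It had 1244 and 852 CPM at 0 nM (42 and 11 UMIs) and 162 and 805 CPM at 500 nM (7 and 166 UMIs), so both 500 nM samples lay below both at 0 nM, and the one with 7 UMIs was much the lower. The log2 difference was -0.95 ± 0.39 (SE) with an edgeR adjusted p of 0.557. Miat in photoreceptors had 43.1 and 60.6 CPM against 67.3 and 79.5 CPM, without overlap, with a log2 difference of 0.59 ± 0.23 and an edgeR adjusted p of 0.742 among 7440 genes. Its unadjusted edgeR p of 0.0125 was below the 0.0158 of Snhg11 in RGCs. Tug1 in amacrine cells had 75.7 and 91.1 CPM against 57.8 and 63.1 CPM, also without overlap (log2 -0.40 ± 0.18, edgeR adjusted p = 0.925). Miat in amacrine cells differed by 0.40 on the log2 scale, and by -0.01 without the second 500 nM sample.

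Malat1 was held closely in the cycling and photoreceptor types. Its log2 difference between 500 and 0 nM was 0.10 ± 0.09 in primary progenitors, 0.06 ± 0.06 in neurogenic progenitors, 0.01 ± 0.07 in photoreceptors and 0.02 ± 0.07 in amacrine cells. In RGCs it was -0.54 ± 0.34. A slope over all 4 doses on log10(nM + 1) also gave 0 of 22 member calls, with 3 at an unadjusted p under 0.05 and 0 by DESeq2, where 0.183% of all tests passed. The smallest adjusted p in edgeR was 0.219, for Malat1 in RGCs with a slope of -0.26 ± 0.10.

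The littermate series asked what loss of Sstr2 did in vivo. In P0 retinas labelled knockout against the single wild type, 0 of 29 member tests passed in edgeR and 0 in DESeq2, where 0.112% of all tests passed. Unadjusted p was under 0.05 in 8, 6 of them of Snhg6 or Malat1. Malat1 and Snhg6 were already known to differ in this contrast when the members were chosen, so their values here are a description. In 20 of the 29 tests both retinas labelled knockout lay above the wild type and in 0 below, and over all genes these shares were 34.9 and 31.8%, but the tests share 5 retinas and 7 genes, and no test of this count was made.

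Snhg6 split the P0 retinas in a way that did not follow genotype. In all 5 cell types it was lower in the wild type and the first heterozygote than in the other 3 retinas. In neurogenic progenitors it was at 105 CPM in the wild type, 131 and 191 CPM in the heterozygotes and 177 and 183 CPM in those labelled knockout. Primary progenitors had 75.7, 75.8, 121, 114 and 112 CPM and photoreceptors 105, 98.0, 169, 173 and 150.01 CPM in the same order. In each of these types the wild type and the first heterozygote were low and the other 3 retinas high. In amacrine cells the values were 133, 126, 174, 179.5 and 184 CPM and in RGCs 153, 145, 165, 191 and 172 CPM. The wild type and the first heterozygote were again lowest, and both retinas labelled knockout also lay above the second heterozygote. Against the heterozygotes the log2 difference was 0.28 ± 0.13 in amacrine cells and 0.25 ± 0.20 in RGCs (edgeR adjusted p = 0.998 and 0.986). Over all cells the values were 95.3, 95.1, 148, 146 and 140 CPM, where a change in the mix of types and a change per cell cannot be told apart. Xist over all cells was at 6.01, 1483, 2.24, 4.42 and 1488 CPM, an order that none of these types followed.

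**Figure D4:**
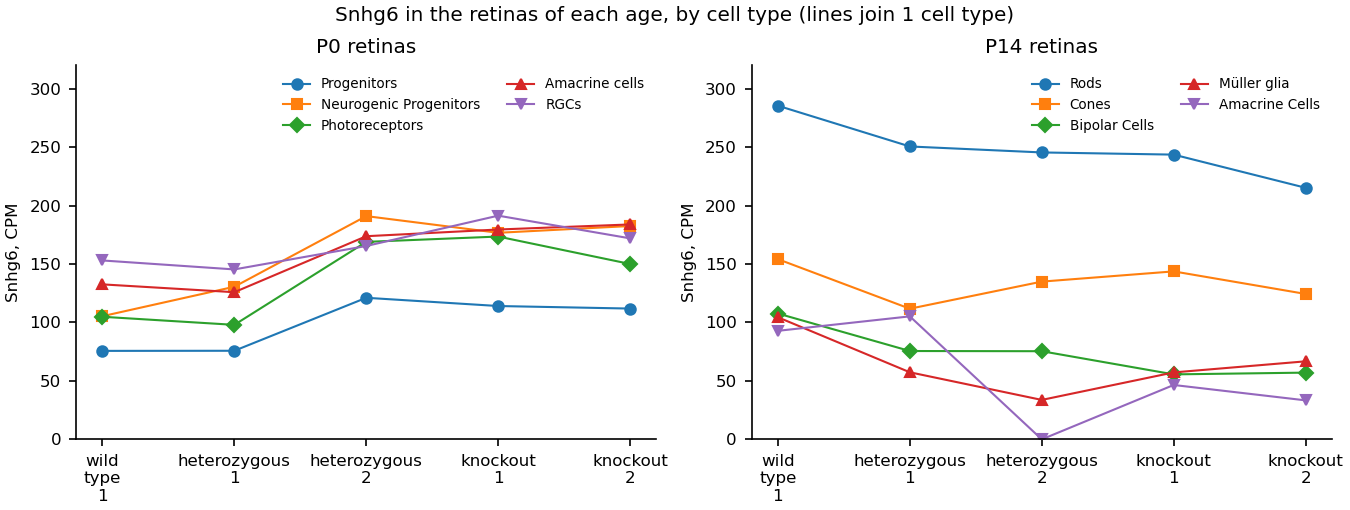
Snhg6 level in CPM (vertical axis) in each P0 and P14 retina by cell type, with lines joining the values of a type. At P0 the wild type and the first heterozygote are lowest in each cell type. In amacrine cells and RGCs both retinas labelled knockout also lie above the second heterozygote. At P14 the wild type is highest in rods at 285 CPM.

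Malat1 differed little at P0. In photoreceptors its share was 5.84% in the wild type, 5.51 and 5.75% in the heterozygotes and 6.25 and 6.32% in the retinas labelled knockout. The latter lay above the other 3. Their photoreceptors were also the shallowest, at median depths of 4518.5 and 4035 UMIs. Wild-type photoreceptors had 4587.5 UMIs and heterozygous ones 5167 and 5198.5 UMIs. Malat1 share was lower in deep than in shallow P0 photoreceptors, as given above. Primary progenitor markers summed to 1193 to 2057 CPM in this type. The part of depth and of progenitors in the contrast was not tested. The log2 difference from the heterozygotes was 0.17 ± 0.03, with an edgeR adjusted p of 0.149. Without either retina labelled knockout the difference was 0.16 and 0.17 and passed, at adjusted p-values of 0.0013 and 0.00824 in edgeR. In neurogenic progenitors the shares were 2.49, 2.49, 2.51, 2.59 and 2.61% (log2 0.06 ± 0.02 against heterozygotes, edgeR adjusted p = 0.839).

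Snhg11 passed no P0 test in the main fit, though in amacrine cells it passed against wild type with no filter on low counts. In P0 amacrine cells it had 20.7 CPM in the wild type, 37.8 and 32.2 CPM in the heterozygotes and 65.0 and 27.6 CPM in those labelled knockout. The heterozygotes lay between these last 2, and the log2 difference between retinas labelled knockout and wild type was 1.14 ± 0.41 with an edgeR adjusted p of 0.998. Without the second retina labelled knockout it was 1.66 and passed, at an adjusted p of 1.27e-05 in edgeR with 1 retina on each side. In RGCs, where the level is high, the difference was 0.43 ± 0.16 (edgeR adjusted p = 0.273) against the wild type and 0.00 ± 0.12 against the heterozygotes.

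Against the heterozygous retinas 0 of 29 P0 member tests passed in edgeR and 0 in DESeq2, 4 had an unadjusted p under 0.05 in edgeR, and 0.109% of all tests passed. The retinas labelled knockout lay wholly above in 6 tests and wholly below in 2, against 16.2 and 17.5% of all tests. Snhg11 in primary progenitors had 10.5 and 4.76 CPM in heterozygotes and 2.19 and 0.958 CPM in those labelled knockout (log2 -2.30 ± 0.55, edgeR adjusted p = 0.997).

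At P14 against the wild type 0 of 23 member tests passed in edgeR and 0 in DESeq2, 3 had an unadjusted p under 0.05 in edgeR, and 0.106% of all tests passed. All 3 were of Snhg6 and lower in the retinas labelled knockout, by -0.30 ± 0.14 in rods, -0.91 ± 0.35 in bipolar cells and -0.76 ± 0.30 in Müller glia on the log2 scale. The bipolar values were 108 CPM in the wild type, 75.6 and 75.4 CPM in the heterozygotes and 55.6 and 57.1 CPM in those labelled knockout, without overlap between the 3 groups. The share of all genes with such an order was not computed. Against the heterozygotes Snhg6 differed by -0.14 ± 0.12 in rods and -0.42 ± 0.35 in bipolar cells, without overlap. In cones it was 0.20 ± 0.32, in Müller glia 0.23 ± 0.32 and in the amacrine group -0.78 ± 1.09, each with overlap. The retinas labelled knockout lay wholly above the wild type in 4 tests and below in 8, against 28.9 and 31.2% of all tests. Without the cells under 2% Malat1 the 3 Snhg6 differences from the wild type were -0.38, -0.90 and -0.79.

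Against the heterozygotes 0 of 23 P14 member tests passed in edgeR and 0 in DESeq2, 1 had an unadjusted p under 0.05 in edgeR, and 0.0732% of all tests passed. That 1 was Neat1 in Müller glia, with the values given above, 71.3 and 58.4 CPM in those labelled knockout against 25.2 and 0 CPM. The log2 difference was 1.68 ± 0.44 (edgeR adjusted p = 0.426), and it passed without the second retina labelled knockout (1.80, edgeR adjusted p = 0.0249) and without the first heterozygote, which leaves a heterozygote with 0 UMIs so that its fold has no bound. The heterozygote at 0 CPM had 14 Müller cells, 5 of them under 2% Malat1, and was the one P14 retina with high Xist, at 1903 CPM over all cells against 3.23 to 12.9 CPM in the others. The groups lay wholly above in 4 tests and wholly below in 5, against 16.5 and 13.8% of all tests.

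**Figure D5:**
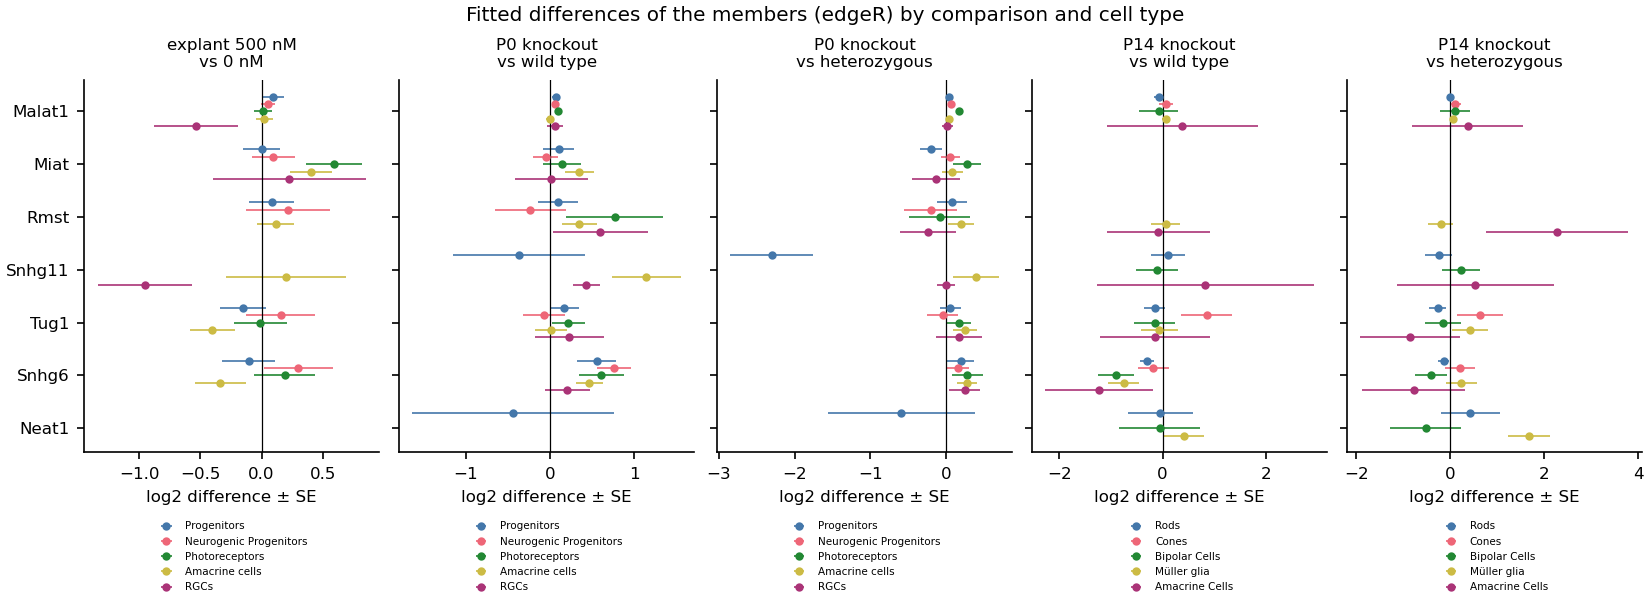
Fitted log2 difference of each member with its standard error (horizontal axis), by comparison and cell type. Most differences lie within 1 of 0, and 0 members passed an adjusted p of 0.05 in any of the comparisons drawn.

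Among the genes listed with the members, few passed either, and the lists were also chosen with earlier results known. Of 46 other long noncoding RNAs 20 to 26 could be tested. In all 6 comparisons the calls were of Xist and its antisense partner Tsix, which mark female cells, of Meg3, an imprinted RNA, and of Vax2os, which is antisense to the eye gene Vax2. The median log2 difference of these RNAs was 0.02 in explants at 500 nM, where that of all genes was 0.00, and 0.24 at P14 against the wild type, where it was 0.01. Host genes of small nucleolar RNAs (11 or 12 tested), proteins of speckles and paraspeckles (21 tested) and protein partners of the members (9 or 10 tested) had 0 calls in every comparison in edgeR. The hosts had unadjusted p-values under 0.05 in 6, 9, 1, 3, 0 and 1 of 44, 43, 57, 57, 52 and 52 tests, in the order 500 nM, dose slope, P0 and P14 with wild type before heterozygotes at each age. For the speckle proteins it was 1, 3, 7, 6, 2 and 1 of 93 to 104 tests and for the partners 6, 6, 0, 4, 0 and 0 of 38 to 43.

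Meg3 was higher with the agonist in explant primary progenitors, where untreated samples had 33.9 and 55.5 CPM and the 500 nM samples 61.5 and 113 CPM. The log2 difference was 1.03 ± 0.25, at the threshold with an edgeR adjusted p of 0.04999, and the slope over doses passed with 0.0218. DESeq2 gave it no adjusted p. It did not pass in cells with a Xist UMI (0.88, edgeR adjusted p = 0.34), nor without the first or second 0 nM sample (0.62 and 1.35) or the second 500 nM sample (0.51). In P14 cones Meg3 was at 495 CPM in the wild type, 1842 and 3126 CPM in heterozygotes and 766 and 2595 CPM in those labelled knockout. The edgeR difference from the wild type was 1.74 ± 0.24 (adjusted p = 8.23e-10), but DESeq2 gave an adjusted p of 1.0, and without the first or second retina labelled knockout it was 2.35 and 0.64 and did not pass.

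Vax2os in P0 RGCs had 24.0 CPM in the wild type, 9.96 and 6.75 CPM in heterozygotes and 36.6 and 62.5 CPM in those labelled knockout, on 2 to 28 UMIs. The log2 difference from heterozygotes was 2.43 ± 0.54 (edgeR adjusted p = 0.0031). It did not pass in DESeq2 (2.53) or without the first heterozygote (2.76) or the second retina labelled knockout (2.04). In the same cells the immediate early genes Egr1 (log2 -1.58 ± 0.40 against wild type, edgeR adjusted p = 0.0167), Jun (-0.999 ± 0.22 against heterozygotes, 0.00269) and Dusp1 (-1.46 ± 0.40, 0.0496) were lower in the retinas labelled knockout. Each of the 3 failed to pass in DESeq2, and each lost its call without at least 1 retina, with Egr1 at -1.22 and Jun at -0.73 without the second retina labelled knockout, Jun at -0.48 without the first heterozygote, and Dusp1 at -0.89 without the first retina labelled knockout and at -1.43 and -1.46 without the first and second heterozygote.

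Of the coding neighbours of the members, Crybb1, a lens crystallin near Miat on its chromosome, was the one gene called, in explant primary progenitors. Its level was 928 CPM in the second 500 nM sample and 7.16 to 13.01 CPM in the other 7 samples, and the log2 difference of 5.46 fell to 0.17 without that sample. Lens markers in these primary progenitors summed to 31.4 CPM in the lowest and 2866 CPM in the highest sample, and the part of lens cells in this value was not tested.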

How the data were processed

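The members and the gene lists were chosen with earlier results of these data known. The authors aligned reads to mm10 with Cell Ranger 3.1.0 and processed them in Seurat 3, according to the submitters' processing notes, and assigned cells to samples from the MULTI-seq barcodes. The annotation release and cell filters are not given in the sources used here, and whether doublets were removed beyond barcode assignment was not tested. The deposited raw matrices hold whole UMI counts per gene and cell. The deposited SCT matrices hold natural log values of 1 plus the corrected count and served as an alternative level. The other deposited columns give cell type and sample.

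The counts of the cells of each type were added up in each sample. A median of 3381 to 8541 UMIs per cell stood behind each P0 or P14 retina, and shares cover counting error only. All samples of a library entered a fit per cell type in edgeR 4.0.16 (R 4.3.3; TMM, filterByExpr, glmQLFit, glmQLFTest), with Benjamini-Hochberg adjustment over all genes of the type and a threshold of 0.05. DESeq2 1.42.0 was an alternative. Nothing in the sources shows that the samples of a group came from separate cultures beyond separate barcodes, so p-values measure the spread between samples. The fits were tested on simulated counts with changes larger than most member differences here. This does not measure their power for smaller differences. Levels between cell types were not tested, since types were named from all genes. The text names every member in all samples, the 3 genes of most similar pattern for each, and listed genes past the threshold. The comparison of P14 cells under 2% Malat1 and the alternative without them were chosen after the values were seen, and used a pseudocount of 10 CPM. CPM and figures were made with Python 3.11.15, numpy 2.4.6, pandas 2.3.3 and matplotlib 3.10.9, and annotation came from GENCODE M21.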

Additional observations from a re-analysis of the deposited data

Results flagged for a closer look

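Over all cells, both retinas labelled knockout lay above the wild type at P0 and below it at P14 for 3 members. The log2 ratio of the mean of the retinas labelled knockout to the wild type was 0.584 at P0 and -0.468 at P14 for Snhg6. For Malat1 it was 0.0705 at P0 and -0.0127 at P14, and for Tug1 it was 0.132 at P0 and -0.0681 at P14. The difference between ages was not tested, and the share of all genes that meet this rule was not computed. By cell type, both retinas labelled knockout lay above the wild type in 34.9% of all tests at P0 and 28.9% at P14. They lay below it in 31.8 and 31.2%. Within P14 types, Snhg6 lay below the wild type in each. Malat1 lay below it in bipolar cells and above it in cones and Müller glia, and Tug1 below it in rods and above it in cones. Applied to amacrine cells, with at least 3 UMIs required in each retina, the rule flagged no member. Snhg6, with a P14 retina at 0 there, was among those left out. Each age is a single library with 1 wild-type retina, the mix of cell types differs between P0 and P14, and the first heterozygous retina at P0 had the wild-type level of Snhg6 (95.1 against 95.3 CPM).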

How the results depend on the processing

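Values were recomputed for members with an unadjusted edgeR p under 0.05 in a contrast between groups. Of 185 such values, 175 kept their direction and did not cross the threshold, with a missing adjusted p counted as no crossing. A further 9 kept their direction and passed it. The last 1 changed direction, Miat in explant amacrine cells, at -0.00993 without the second 500 nM sample (up to 0.70 when another sample was left out). The count of members called stayed 0 under every alternative for 500 against 0 nM, for the dose slope and for P14 retinas labelled knockout against wild type. With no filter on low counts, which leaves more low genes in the fit, 1 member passed for P0 against wild type (Snhg11 in amacrine cells, 1.13, edgeR adjusted p = 0.0358), 1 for P0 against heterozygotes (Malat1 in photoreceptors, 0.16) and 1 for P14 against heterozygotes (Neat1 in Müller glia, 1.66). Leaving out each retina in turn gave 0 to 2 calls for P0 against wild type, 0 to 2 for P0 against heterozygotes and 0 to 1 for P14 against heterozygotes. The calls against wild type at P0 came without the second retina labelled knockout and were Snhg6 in neurogenic progenitors (0.75) and Snhg11 in amacrine cells (1.66). Against heterozygotes at P0, Malat1 in photoreceptors passed without either retina labelled knockout (0.16 and 0.17). At P14 Neat1 in Müller glia passed without the first heterozygote, where the fitted 8.53 is no bound, and without the second retina labelled knockout (1.80). The cause was not tested, and where 1 sample is left its spread is taken from the other groups. The type with the highest level held for 20 of 21 member and library pairs with Malat1 and mitochondrial transcripts out of the total, for 19 with SCT values, for 15 of 18 by thinned and 13 of 18 by unthinned share of cells, and for 19 to 21 when a sample was left out. The pairs that changed were of Tug1, Snhg6, Rmst, Neat1 and Malat1, and none of Miat or Snhg11. No paired analysis was possible because the sample names give no replicate numbers shared between groups. The single wild-type retina could not be left out of its contrasts, and P0 RGCs could not be fitted without the 5% deepest cells, since a sample then had no cells. Depth limits Neat1 before P14, Miat at P14 and most members in RGCs of the explants and the P14 amacrine group. Malat1 had 39640 and 87673 UMIs in these last groups, where the few cells per sample are the limit.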
